A study of Mus musculus with 6 samples.

Results

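The transcripts described here encode the kinase mTOR, the subunits that define its complexes, the TSC-Rheb switch upstream of it and the FoxO transcription factors downstream. They are *Mtor*, *Rptor*, *Mlst8*, *Rictor*, *Mapkap1*, *Tsc1*, *Tsc2*, *Rheb*, *Foxo1* and *Foxo3*. They were taken by gene symbol, with earlier results of these data known, and all 10 were present among the 12153 genes of the expression table. RNA-Seq was performed on Tregs sorted from B16.F10 melanoma tumors on day 15 after tumor inoculation, with 3 libraries from control mice labeled Nr3c1-flox and 3 from mice labeled Nr3c1-flox_Foxp3-YFP/Cre, here called *Nr3c1* Foxp3-Cre. Both groups therefore carry the floxed *Nr3c1* allele, which encodes the glucocorticoid receptor (GR), and the label of the *Nr3c1* Foxp3-Cre mice adds Cre recombinase fused to YFP and driven by the *Foxp3* promoter, which deletes GR in Foxp3-expressing cells. The study combined female and male mice, and the labels give neither age nor whether a library came from 1 mouse or several, so p-values measure only the spread between these libraries. The labels describe a sort on CD45, CD4 and CD25 and the study's methods a sort of CD45.2+CD4+ cells on Foxp3-YFP, with exclusion of cells bearing NK1.1, TCR-γδ, B220, CD11c or CD11b, and the control label names no YFP allele.

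mTOR works in 2 complexes. Raptor, the product of *Rptor*, defines mTORC1, which drives protein synthesis and growth, whereas Rictor and mSIN1, the product of *Mapkap1*, define mTORC2, which phosphorylates the kinase AKT. mLST8 is found in both. The TSC1-TSC2 complex switches off the small GTPase Rheb, the direct activator of mTORC1, and AKT both relieves that brake and keeps FoxO1 and FoxO3 out of the nucleus. In Tregs, mTORC1 is known to support suppressive function, and FoxO1 is required for the Treg program. Glucocorticoids have been described to act on Tregs through the microRNA miR-342, with *Rictor* as its target.

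Before the expression values, the sequences behind that link are shown: the mature mouse miR-342-3p from RefSeq (GRCm38.p6), with bases 2 to 8, its seed, in capitals, and then each match to that seed in the 3′ untranslated region (UTR) of *Rictor*, with the matching bases in capitals.
mmu-miR-342-3p: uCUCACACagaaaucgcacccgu
*Rictor*, 8-base match: gtgctaattttGTGTGAGAagaacatgtga
*Rictor*, 7-base match: gattttcccgaGTGTGAGttgggaaggtc
The microRNA lies at chr12:108658680-108658702 on the plus strand, inside an intron of *Evl*, which encodes an actin regulator. Both *Rictor* stretches lie in its longest annotated 3′ UTR, of 4165 bases (GENCODE M21 on mm10, plus strand), at chr15:6799294-6799323 and chr15:6799465-6799493. The letters searched on the transcript strand were GTGTGAG, which pairs with the whole seed, its extension GTGTGAGA, and TGTGAGA, which pairs with bases 2 to 7 and adds an A. Only the longest annotated 3′ UTR of each gene was read. Among the other 9 members, *Foxo3* also held 1 match of 8 bases, and *Rptor*, *Tsc1* and *Foxo1* held 7-base matches only. *Mtor*, *Mlst8*, *Mapkap1*, *Tsc2* and *Rheb*, whose 3′ UTRs were 2282 bases or shorter, held none of these letters. Such matches are common in long 3′ UTRs: of 934 genes with a 3′ UTR within 20% of the length of that of *Rictor*, 57.6% held at least 1 and 12.8% an 8-base match. A match of letters is a description and does not show that the microRNA acts there, and miR-342 itself was not measured in these libraries.

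The genotype was first checked on *Nr3c1*. It was at 7.15, 7.59 and 6.88 log2 CPM, the quantile-normalized unit of the table (CPM, read counts scaled to the library total), in control libraries 1 to 3 and at 6.14, 5.45 and 5.90 in *Nr3c1* Foxp3-Cre libraries 1 to 3, so that each library of the second group lay below each of the first. Its log2 fold change was -1.38 (limma adjusted p = 0.120), and that of *Tsc22d3*, the classical GR-induced gene that encodes GILZ, was -1.56 (limma adjusted p = 0.0342). Over the whole table, 7 of 12153 genes, or 0.0576%, had an adjusted p under 0.05. All 6 Treg markers were present, with a mean between 7.52 and 8.17 log2 CPM in the control libraries and between 7.57 and 8.10 in the *Nr3c1* Foxp3-Cre libraries, and *Foxp3* itself was between 3.39 and 4.47. Melanoma genes were also present in every library. Their 6 markers summed to between 3396 and 9105 CPM in control libraries and between 3791 and 9511 in *Nr3c1* Foxp3-Cre libraries, highest in control library 1 and *Nr3c1* Foxp3-Cre library 2 and lowest in control library 2 and *Nr3c1* Foxp3-Cre library 3. The 3 fibroblast collagen genes summed to 164 to 425 CPM in control libraries and 71.0 to 151 CPM in *Nr3c1* Foxp3-Cre libraries, without overlap, so that this signal and the genotype cannot be told apart. The 6 macrophage and monocyte markers summed to 283 to 393 CPM in control libraries and 218 to 402 CPM in *Nr3c1* Foxp3-Cre libraries, which overlapped. Their mean log2 CPM did not overlap, at 3.89 to 4.32 and 3.54 to 3.72, but it did without *Mpeg1*, which was at -3.96 in *Nr3c1* Foxp3-Cre library 2, at 4.54 to 5.13 and 4.25 to 5.15. The described gates, on CD45 and with CD11b among the excluded markers, would remove melanoma cells, fibroblasts and most macrophages, and the source of these transcripts was not tested. The 3 measured of 4 dendritic cell markers summed to 30.97 to 49.06 CPM in control and 34.33 to 43.99 in *Nr3c1* Foxp3-Cre libraries. Of the 2 CD8 T cell markers, only *Cd8b1* was measured. It was at 2.93 to 3.96 log2 CPM in control libraries and 3.35 to 3.67 in *Nr3c1* Foxp3-Cre libraries. Both signals overlapped between the groups, and their source was not tested either. The 3 B cell and 2 NK cell markers had no row in the table. In such bulk samples, fewer cells of a type and less RNA per cell cannot be told apart.

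None of the 10 members differed between the genotypes at a limma p adjusted over all genes under 0.05. *Tsc1*, higher in all 3 *Nr3c1* Foxp3-Cre libraries, was the only member of 10 with an unadjusted p under 0.05, against 3.26% of all genes in either direction and 1.61% in that direction. For 2 members, *Tsc1* and *Mapkap1*, the groups did not overlap, both with higher values in *Nr3c1* Foxp3-Cre Tregs; over all genes this held for 7.41%, of which 3.69% of the table was higher and 3.73% lower. Of the members, 7 had a higher and 3 a lower mean in *Nr3c1* Foxp3-Cre Tregs, with a median log2 fold change of 0.058 and a range from -0.13 for *Mlst8* to 0.58 for *Tsc1*. Over all genes the median was -0.0014. The members were measured about as precisely as other genes, with a median SD within groups of 0.23 log2 units against 0.22 over the table. Their limma 95% intervals reached a median of 0.39 log2 units to each side of the estimate, so that differences of that size or smaller were mostly not resolvable with 3 libraries per group.

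**Figure D1:**
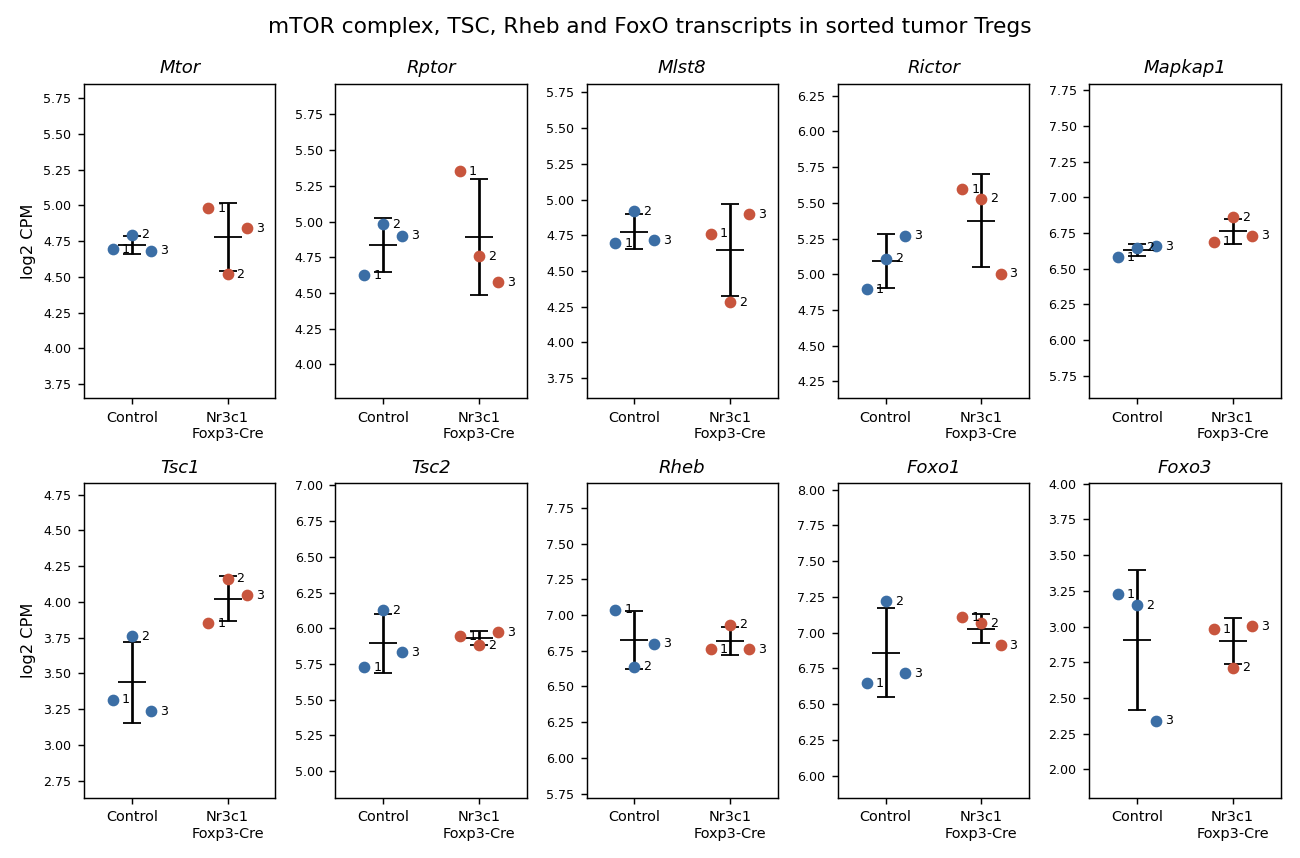
log2 CPM (y axis, each panel spanning 2.2 log2 units) of the 10 members in 3 control (blue) and 3 *Nr3c1* Foxp3-Cre (red) libraries, numbered by replicate. Horizontal bars give the mean and error bars the SD of 3 libraries. Only for *Tsc1* and *Mapkap1* do all red points lie above all blue points.

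*Mtor*, the kinase shared by both complexes, was at 4.69, 4.79 and 4.68 log2 CPM in control libraries 1 to 3. In *Nr3c1* Foxp3-Cre libraries 1 to 3 it was at 4.98, 4.52 and 4.84. The control libraries lay close together and the *Nr3c1* Foxp3-Cre libraries fell on both sides of them, with a log2 fold change of 0.057 (95% interval -0.31 to 0.42, limma adjusted p = 1.0).

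*Rptor*, the mTORC1-defining scaffold, had values of 4.62, 4.98 and 4.90 log2 CPM in control libraries and 5.35, 4.76 and 4.58 in *Nr3c1* Foxp3-Cre libraries. *Nr3c1* Foxp3-Cre library 1 was the highest of the 6 and library 3 the lowest, giving the second group an SD of 0.41 against 0.19 in controls. The log2 fold change of 0.060 (95% interval -0.42 to 0.54, limma adjusted p = 1.0) was far smaller than that spread. *Mlst8*, the subunit common to both complexes, was at 4.70, 4.92 and 4.71 log2 CPM in control libraries and 4.76, 4.28 and 4.90 in *Nr3c1* Foxp3-Cre libraries. Its lower mean in the second group came from library 2 alone, the only one below the controls, and the log2 fold change of -0.13 had a 95% interval from -0.55 to 0.29. Without *Nr3c1* Foxp3-Cre library 2 it was 0.054.

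*Rictor*, the mTORC2-defining subunit, was at 4.90, 5.11 and 5.27 log2 CPM in control libraries 1 to 3 and at 5.59, 5.53 and 5.01 in *Nr3c1* Foxp3-Cre libraries 1 to 3. *Nr3c1* Foxp3-Cre libraries 1 and 2 lay above every control, whereas library 3 lay within the control range. Control Tregs averaged 5.09 ± 0.19 log2 CPM (SD, n = 3) and those of the other genotype 5.38 ± 0.32 (SD, n = 3), a 1.22-fold ratio whose 95% interval ran from 0.914 to 1.62. The adjusted p was 1.0 in limma for this log2 fold change of 0.28 (standard error 0.18), which lay between the SDs of the groups. These libraries therefore showed no resolved difference in *Rictor* mRNA, and the interval leaves a rise of up to 1.62-fold possible. With single libraries left out its log2 fold change ranged from 0.18 without *Nr3c1* Foxp3-Cre library 1 to 0.47 without *Nr3c1* Foxp3-Cre library 3, the latter with an unadjusted limma p of 0.0201 and an adjusted p of 0.999.

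*Mapkap1*, which encodes the mTORC2 subunit mSIN1, had values of 6.58, 6.65 and 6.66 log2 CPM in control libraries and 6.69, 6.86 and 6.73 in *Nr3c1* Foxp3-Cre libraries. The groups did not overlap, but the gap between the highest control and the lowest *Nr3c1* Foxp3-Cre library was small. The log2 difference of 0.13 had a standard error of 0.098 and a limma adjusted p of 1.0, and the 95% interval of the ratio, 0.941 to 1.28, was the narrowest of the members. The host gene of miR-342, *Evl*, was at 5.37, 5.58 and 5.81 log2 CPM in control libraries and 5.83, 5.75 and 5.54 in *Nr3c1* Foxp3-Cre libraries, with overlapping groups and a log2 fold change of 0.12 (95% interval -0.21 to 0.45). Across the table, the 534 genes with an 8-base match to the miR-342-3p seed had a median log2 fold change of 0.024, and 56.6% of them had a higher mean in *Nr3c1* Foxp3-Cre Tregs. Over all 11405 genes with a 3′ UTR, the median was -0.0028 and 49.2% were higher. Genes with an 8-base match have longer 3′ UTRs, with a median of 2725 bases against 1174, and 3.18% of them against 3.17% of all had an unadjusted p under 0.05.

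*Tsc1*, which encodes hamartin, the stabilizing subunit of the TSC complex, was at 3.32, 3.76 and 3.24 log2 CPM in control libraries 1 to 3 and at 3.85, 4.16 and 4.05 in *Nr3c1* Foxp3-Cre libraries 1 to 3. Every *Nr3c1* Foxp3-Cre library lay above every control, with control library 2 closest to them. The means were 3.44 ± 0.28 (SD, n = 3) and 4.02 ± 0.16 (SD, n = 3), a log2 fold change of 0.58 (standard error 0.21) or a 1.5-fold ratio with a 95% interval from 1.07 to 2.09. The unadjusted limma p was 0.0227 and the adjusted p 1.0, so the difference did not pass correction over all genes. Leaving out single libraries gave log2 fold changes from 0.48 to 0.75 and unadjusted p-values from 0.00812 to 0.0885, over 0.05 without control library 1, control library 3, *Nr3c1* Foxp3-Cre library 2 or *Nr3c1* Foxp3-Cre library 3. Adding the mean of the melanoma markers to the fit gave 0.58 (limma adjusted p = 0.669), and adding that of the fibroblast markers, which follows the genotype, gave 0.30 (limma adjusted p = 0.753).

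*Tsc2*, which encodes tuberin, the GTPase-activating subunit, showed no such separation. Its values were 5.73, 6.13 and 5.83 log2 CPM in control libraries and 5.94, 5.88 and 5.97 in *Nr3c1* Foxp3-Cre libraries, all 3 of the latter within the control range, with a log2 fold change of 0.037 (95% interval -0.25 to 0.33). *Tsc2* shares 693 exonic bases with *Pkd1* on the opposite strand, and no source used here states that counting used the strand, so reads from that overlap may not be assigned to the right gene. The same limit applies to *Mlst8* with *Bricd5* (997 bases), *Foxo1* with *Gm20402* (674 bases) and *Rptor* with *Rptoros* (84 bases). Unlike *Pkd1*, these overlapping genes had no row in the table. The difference *Tsc1* minus *Tsc2* within each library, on the log2 CPM scale, was -2.41, -2.36 and -2.60 in control and -2.09, -1.72 and -1.93 in *Nr3c1* Foxp3-Cre libraries, without overlap. Because *Tsc2* differed by only 0.037, this separation mostly repeats that of *Tsc1*. The share of other gene pairs without overlap was not counted. *Rheb*, the GTPase that this complex restrains, was at 7.04, 6.64 and 6.80 log2 CPM in control and 6.76, 6.93 and 6.76 in *Nr3c1* Foxp3-Cre libraries. The second group lay wholly inside the first, and the log2 fold change of -0.0080 (95% interval -0.28 to 0.27) was a small fraction of the SDs.

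**Figure D2:**
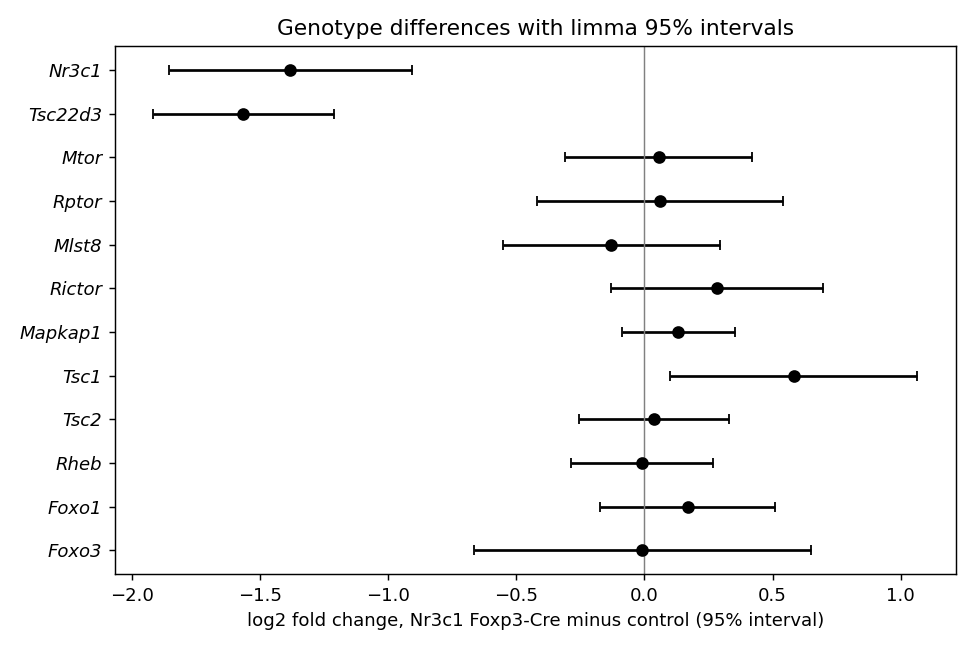
log2 fold change (x axis, *Nr3c1* Foxp3-Cre minus control) of *Nr3c1*, *Tsc22d3* and the 10 members; points are limma estimates and bars their 95% intervals from 3 against 3 libraries. The intervals of 9 members include 0, and that of *Tsc1*, from 0.10 to 1.06, does not before correction for multiple testing.

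*Foxo1*, the FoxO factor required by Tregs, was at 6.64, 7.22 and 6.72 log2 CPM in control libraries and 7.11, 7.06 and 6.91 in *Nr3c1* Foxp3-Cre libraries. Control library 2, the control with the least melanoma signal, was the highest of the 6, and the other 2 controls were the lowest. In the other group, library 3 had the least melanoma signal and the lowest *Foxo1*. The log2 fold change of 0.17 (95% interval -0.17 to 0.51, limma adjusted p = 1.0) was smaller than the control SD of 0.31. It was 0.061 without control library 1, 0.097 without control library 3 and 0.35 without control library 2, the last with an unadjusted limma p of 0.0136 and an adjusted p of 0.726. Adding the melanoma markers to the fit gave 0.16, and adding the fibroblast markers, which follow the genotype, gave -0.33. *Foxo3*, its close relative, was at 3.23, 3.15 and 2.34 log2 CPM in control and 2.98, 2.71 and 3.0 in *Nr3c1* Foxp3-Cre libraries. Control library 3 was the lowest and the other 2 controls the highest, and the log2 fold change was -0.0075 with the widest interval of the members, -0.66 to 0.65.

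Balances within a library were also compared, because both genes of a pair share the same RNA. *Rptor* minus *Rictor* was -0.27, -0.13 and -0.37 log2 units in control libraries and -0.24, -0.77 and -0.43 in *Nr3c1* Foxp3-Cre libraries. The groups overlapped, since *Nr3c1* Foxp3-Cre library 1 stood among the controls, and the group difference of -0.22 was about the size of the pooled SD of 0.21. *Mapkap1* minus *Rictor* overlapped as well, with means of 1.54 ± 0.15 (SD, n = 3) and 1.39 ± 0.32 (SD, n = 3), as did *Foxo1* minus *Foxo3*, with means of 3.95 ± 0.49 and 4.13 ± 0.22 (SD, n = 3 each). With single libraries left out, the group difference ranged from -0.34 to -0.078 for *Rptor* minus *Rictor* (the latter without *Nr3c1* Foxp3-Cre library 2), and from -0.32 to -0.0075 for *Mapkap1* minus *Rictor* (the latter without *Nr3c1* Foxp3-Cre library 1). For *Foxo1* minus *Foxo3* it ranged from -0.092 without control library 1 to 0.39, and for *Tsc1* minus *Tsc2* from 0.45 to 0.64.

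**Figure D3:**
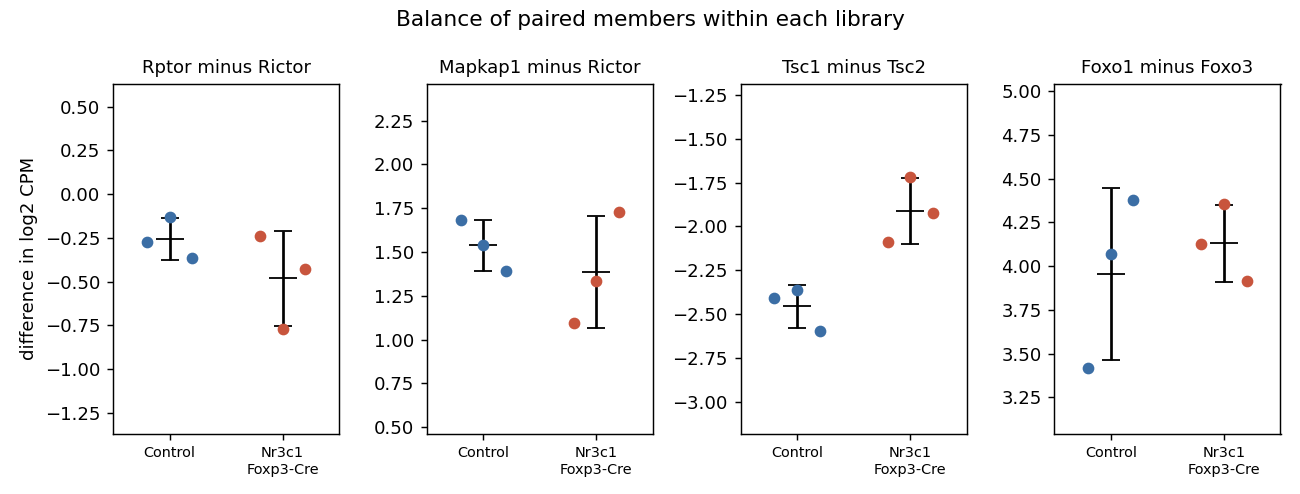
Difference in log2 CPM between paired members (y axis, each panel spanning 2 log2 units) in 3 control (blue) and 3 *Nr3c1* Foxp3-Cre (red) libraries, drawn from replicate 1 to 3, with mean and SD. *Tsc1* minus *Tsc2* is the only pair of the 4 whose groups do not overlap, which mostly repeats the separation of *Tsc1* itself.

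Levels were compared between members only per kilobase of annotated exon, averaged over the 6 libraries. *Mapkap1* was highest at 4.67 log2 CPM per kilobase, at percentile 79.4 of the table, followed by *Rheb* at 3.87 and *Foxo1* at 3.83. *Tsc2* at 2.65 and *Mlst8* at 2.56 came next, then *Mtor* at 1.42, *Rictor* at 1.15 and *Rptor* at 1.11. *Tsc1* at 0.16 and *Foxo3* at -0.018 were lowest, at percentiles 16.2 and 14.4. The steps from *Mapkap1* to *Rheb*, from *Foxo1* to *Tsc2*, from *Mlst8* to *Mtor* and from *Rptor* to *Tsc1* exceeded the within-group SD of both neighbors. The step of 0.26 from *Mtor* to *Rictor* was no larger than the SD of *Rictor*, and the other steps were smaller than 0.19. When the longest transcript was used in place of all exons, the order of the 3 genes *Mtor*, *Rictor* and *Rptor* was turned around, and the first 5 and last 2 places did not change. The 10 genes lie on 8 chromosomes of mm10: *Tsc1* (chr2:28641228-28691167) and *Mapkap1* (chr2:34406771-34624950) share chromosome 2 and *Tsc2* (chr17:24595816-24632630) and *Mlst8* (chr17:24473551-24479078) chromosome 17. *Rictor* lies at chr15:6708379-6800401 and *Rptor* at chr11:119602905-119899576.

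The promoters, from 250 bases before to 50 after each RefSeq start on GRCm38.p6, held few of the motifs searched on both strands. The palindromic GR element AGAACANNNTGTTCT was in none of the 10 members and in 0.0107% of 9334 genes, and the CLEAR motif of lysosomal genes was in none of the members and 0.793% of genes. The letters TGTTTAC, searched here as a FoxO motif, were in 1 member, *Mapkap1*, and in 3.09% of genes. These letters alone do not say which factor could bind them. That match is shown, with the motif in capitals, because it is the only match to these motifs among the members. The stretch is read on the minus strand at chr2:34406661-34406689, opposite to the gene, and its motif lies 99 and 179 bases before the 2 annotated starts.
*Mapkap1* promoter stretch: taaccaacttcTGTTTACcttcaagtgta
No match says only that these letters were not in these windows, and a match is no evidence of binding.

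The genes around the members were taken from lists of pathway genes, 112 of which were measured. This total also counts *Evl*, the host gene of miR-342, which is in none of the lists described below. Of these, 62 had a higher and 50 a lower mean in *Nr3c1* Foxp3-Cre Tregs, with a median log2 fold change of 0.029. Adjusted over all genes, 0 passed limma's test in either direction, and at an unadjusted p under 0.05 there were 4 higher, against 1.61% of all genes, and 3 lower, against 1.65%. Each had an adjusted p of 1.0. They included *Prkab2*, *Atg13*, *Bach2*, *Stk11*, *Ccr7* and *Il7r*, and 4 of the 7 belonged to the list of FoxO family and target genes.

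Among the other subunits of the mTOR and TSC complexes, 4 of 9 were higher and 5 lower, none with an unadjusted p under 0.05. The extremes were *Prr5l*, an mTORC2-associated protein, at a log2 fold change of 0.45 (95% interval -0.55 to 1.44), and *Deptor*, an inhibitor of mTOR, at -0.27 (95% interval -0.90 to 0.36). *Prr5l* was at 0.13 without control library 3 and 0.15 without *Nr3c1* Foxp3-Cre library 1, and *Deptor* between -0.46 without control library 2 and -0.072 without *Nr3c1* Foxp3-Cre library 1. The fibroblast covariate turned both, to -0.12 and 0.70. The 29 genes of amino acid sensing include promoters and inhibitors of mTORC1 recruitment to the lysosome, so their counts give no direction of signaling. They were 16 higher and 13 lower with a median of 0.017, and none had an unadjusted p under 0.05. They ranged from -0.23 for the GTPase *Rraga* to 0.45 for *Castor2*, a relative of the arginine sensor CASTOR1. Without control library 1 these were at -0.10 and 0.052, and with the fibroblast covariate at -0.0092 and -1.21. Of 19 measured genes of PI3K and AKT signaling, 12 were higher and 7 lower, between -0.25 for the AKT phosphatase *Phlpp1* and 0.35 for the PI3K inhibitor *Pik3ip1*. Without control library 2 these were at -0.16 and 0.095, and with the fibroblast covariate at -0.70 and 1.40. *Akt1*, the kinase between mTORC2 and FoxO, had a log2 fold change of 0.028 (95% interval -0.25 to 0.31), or -0.069 without control library 2.

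Of 10 measured genes of the AMPK and stress brakes on mTORC1, 2 had an unadjusted p under 0.05, in opposite directions. *Stk11*, which encodes the AMPK-activating kinase LKB1, was at 4.44, 4.39 and 4.53 log2 CPM in control libraries and 4.19, 3.71 and 4.03 in *Nr3c1* Foxp3-Cre libraries. All 3 *Nr3c1* Foxp3-Cre libraries lay below the controls, with a log2 fold change of -0.48 (95% interval -0.88 to -0.070), and -0.58 to -0.34 with single libraries left out. *Prkab2*, an AMPK regulatory subunit, was at 0.62, 2.35 and 1.56 log2 CPM in control libraries and 2.63, 2.42 and 2.58 in *Nr3c1* Foxp3-Cre libraries. Its groups did not overlap, but control library 1 was far below the rest: the log2 fold change was 1.03 (95% interval 0.077 to 1.99), and 0.59 without that library. Adding the fibroblast markers to the fit gave -0.50. *Ddit4*, a glucocorticoid-inducible inhibitor of mTORC1 that acts through TSC, had values of 5.34, 6.09 and 5.48 log2 CPM in control libraries and 5.52, 4.85 and 5.33 in *Nr3c1* Foxp3-Cre libraries. These overlapped, with a log2 fold change of -0.40 (95% interval -0.91 to 0.12). It was at -0.17 without control library 2 and -0.21 without *Nr3c1* Foxp3-Cre library 2, and with the fibroblast covariate, which follows the genotype, at -1.46 (limma adjusted p = 0.0228).

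Of 21 measured substrates and effectors of both complexes, 11 were higher and 10 lower. *Atg13*, an autophagy initiation factor that mTORC1 phosphorylates, was the only one with an unadjusted p under 0.05, at 5.39, 5.76 and 5.62 log2 CPM in control and 6.04, 5.72 and 6.07 in *Nr3c1* Foxp3-Cre libraries. Its groups overlapped because *Nr3c1* Foxp3-Cre library 2 lay below control library 2, and its log2 fold change was 0.36 (95% interval 0.029 to 0.68), or -0.15 with the fibroblast markers added to the fit. *Sgk1*, a glucocorticoid-regulated kinase and mTORC2 substrate, was at 5.96, 6.42 and 6.28 log2 CPM in control libraries and 6.22, 5.85 and 5.86 in *Nr3c1* Foxp3-Cre libraries, with overlapping groups and a log2 fold change of -0.24 (95% interval -0.60 to 0.11), or -0.14 without control library 2, -0.38 without control library 1 and -0.76 with the fibroblast covariate. The mTORC1 substrates *Rps6kb1* and *Eif4ebp1*, which control ribosomal protein phosphorylation and translation initiation, had log2 fold changes of -0.0017 (95% interval -0.24 to 0.24) and 0.15 (95% interval -0.36 to 0.65). *Eif4ebp1* was at -0.082 without *Nr3c1* Foxp3-Cre library 2 and 0.96 with the fibroblast covariate.

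**Figure D4:**
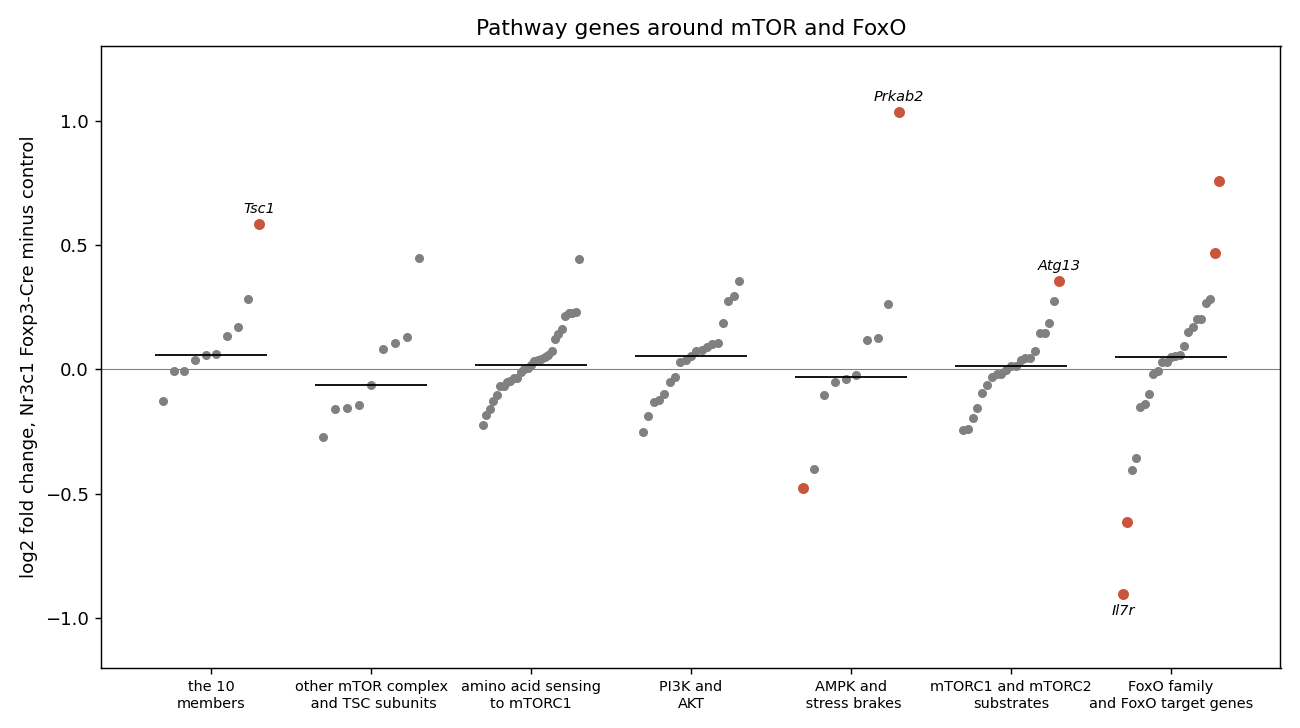
log2 fold change (y axis, *Nr3c1* Foxp3-Cre minus control) of the 10 members and of each measured gene in 6 pathway lists (x axis), sorted within each list, with the median as a line. Red points are the 8 genes with an unadjusted limma p under 0.05, of which 0 pass adjustment over all genes; the red point furthest from 0 in each list is named, and *Il7r* is the lowest and *Prkab2* the highest of all.

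Known FoxO targets had differences in both directions, none of which passed adjustment. Of 23 measured genes in this list, 14 were higher and 9 lower, with a median of 0.049, and 2 in each direction had an unadjusted p under 0.05. *Bach2*, a repressor of effector differentiation, was at 1.45, 1.52 and 1.42 log2 CPM in control and 2.31, 1.91 and 2.45 in *Nr3c1* Foxp3-Cre libraries, without overlap, at a log2 fold change of 0.76 (95% interval 0.082 to 1.43). *Il7r*, the IL-7 receptor chain that glucocorticoids also induce in T cells, went the other way. It was at 6.78, 7.56 and 6.67 log2 CPM in control libraries and 6.59, 5.57 and 6.15 in *Nr3c1* Foxp3-Cre libraries. Every *Nr3c1* Foxp3-Cre library lay below every control, at a 0.535-fold ratio (95% interval 0.345 to 0.831) or -0.90 on the log2 scale. *Ccr7*, the lymph node homing chemokine receptor, was at 7.05, 7.5 and 7.07 log2 CPM in control and 6.95, 6.63 and 6.20 in *Nr3c1* Foxp3-Cre libraries, without overlap. The difference was -0.61 on the log2 scale (95% interval -1.05 to -0.18). With single libraries left out, log2 fold changes ranged from 0.64 to 0.91 for *Bach2*, from -1.14 to -0.62 for *Il7r* and from -0.79 to -0.42 for *Ccr7*. The unadjusted limma p of *Bach2* then ran from 0.0229 to 0.0913, and with the replicate block it was 0.0665. *Klf2* and *S1pr1*, FoxO1-dependent trafficking genes, were added after their values were seen and do not stand for the list. They had log2 fold changes of 0.030 (95% interval -0.29 to 0.35) and 0.094 (95% interval -0.17 to 0.36). Adding the melanoma markers to the fit gave -0.91 for *Il7r*, -0.61 for *Ccr7* and 0.75 for *Bach2*. Adding the fibroblast markers, which follow the genotype, gave -2.21 for *Il7r* (limma adjusted p = 0.0118), -1.05 for *Ccr7* (limma adjusted p = 0.130) and 0.39 for *Bach2* (limma adjusted p = 0.786).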

How the data were processed

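Per the methods of the authors, Cutadapt removed adapters, STAR mapped the reads on mm10 and RSEM quantified genes of GENCODE M21; genes under a CPM limit were dropped and the remainder was quantile normalized. The deposited values are log2 CPM after that step by the authors, for 12153 genes in 6 libraries. Each library sums to 999633 or 999634 CPM on the linear scale, which leaves the sequencing depth unknown and allows no counting intervals. No 2 libraries had identical values at more than 0.214% of genes.

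The whole table entered 1 model in limma 3.58.1 under R 4.3.3 (lmFit, eBayes with a mean-variance trend, genotype only, Benjamini-Hochberg over all genes, two-sided). The weights of voom need counts and were not recomputed. The fit was tested on simulated data. Members and lists were chosen with earlier results of these data known. Named genes were the members, *Nr3c1*, *Tsc22d3*, pathway genes with an unadjusted p under 0.05 or the extreme log2 fold change of their list at a mean of at least 1, and *Ddit4*, *Sgk1*, *Evl*, *Akt1*, *Rps6kb1* and *Eif4ebp1*; *Klf2* and *S1pr1* were added after their values were seen, and the genes nearest to *Rptor* and *Rictor* were ranked by root mean square difference of centered values. Alternatives were robust eBayes, eBayes with no trend, sample quality weights, vooma weights, a minimum mean of 1, log2(CPM + 1), cyclic loess, median centering, the replicate block and leaving out each library. Covariates for melanoma and fibroblast markers were chosen after seeing the data. Some genes under this rule are not reported here. GENCODE M21 matched 12130 genes by identifier.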

Additional observations from a re-analysis of the deposited data

How the results depend on the processing

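No member passed an adjusted p of 0.05 in any of 17 alternatives, and *Rictor*, *Mapkap1* and *Tsc1* kept a higher mean in *Nr3c1* Foxp3-Cre Tregs in all of them, at log2 fold changes of 0.12 to 0.47, 0.082 to 0.19 and 0.30 to 0.75. Both other eBayes settings, vooma weights, the minimum mean and the replicate block leave these log2 fold changes as they were, so they could not change a sign. For *Mapkap1* and *Tsc1*, whose groups did not overlap, leaving out a library could not change it either. Over all genes, 7 were called at an adjusted p under 0.05, against 0 without a trend, 19 with sample quality weights (which weighted control library 3 at 7.47 and the others under 1), 0 with the replicate block, 18 with the melanoma and 201 with the fibroblast covariate, and 0 to 8 with 1 library left out. Genes with an unadjusted p under 0.05 numbered 396, but 1376 with sample quality weights, 678 with the melanoma covariate, 2218 with the fibroblast covariate and 290 to 703 with 1 library left out. Members with an unadjusted p under 0.05 numbered 2 with sample quality weights, and 0 to 2 with 1 library left out: 0 without control library 1, control library 3 or *Nr3c1* Foxp3-Cre library 2, 2 (*Tsc1* and *Foxo1*) without control library 2, and 1 (*Rictor* in place of *Tsc1*) without *Nr3c1* Foxp3-Cre library 3. Members without overlap numbered 2 to 4 with 1 library left out, the most without control library 2. Non-overlap is easier to reach with fewer libraries, and its share over all genes was not counted in those settings. These counts are therefore not read as a result about the members. Of the pathway genes, 16 had an unadjusted p under 0.05 with sample quality weights, 32 with the fibroblast covariate, 6 of these also at an adjusted p under 0.05, and 5 to 11 with 1 library left out. The direction changed under at least 1 alternative for 7 of the 10 members. With sample quality weights *Rheb* was at 0.0017 and *Foxo3* at 0.47. The fibroblast covariate, which follows the genotype, gave -0.30 for *Mtor*, -0.41 for *Rptor*, -0.36 for *Tsc2*, 0.42 for *Rheb* and -0.33 for *Foxo1*. With 1 library left out the ranges were -0.043 to 0.19 for *Mtor*, -0.17 to 0.22 for *Rptor*, -0.25 to 0.054 for *Mlst8*, -0.047 to 0.15 for *Tsc2*, -0.10 to 0.098 for *Rheb* and -0.29 to 0.15 for *Foxo3*, and 0.061 to 0.35 for *Foxo1*, which kept its sign there. The cause of these changes was not tested. Other scalings moved the median of all genes by less than 0.01. Deviations of same-numbered libraries correlated at -0.12, -0.33 and -0.025, and 0 of the 6 libraries correlated best with their own number. These correlations gave no sign of a pairing by number, but 3 libraries per group cannot decide whether there was one. With the replicate block, 1 member, *Tsc1*, and 5 pathway genes had an unadjusted p under 0.05, and the log2 fold change of *Tsc1* was 0.58. Without read depths, counting error for weakly expressed genes (*Bach2*, *Prkab2*) could not be given.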

Other observations

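The genes whose 6 centered log2 values lay nearest to those of *Rptor* were *Rc3h1*, which encodes the mRNA decay factor Roquin-1, *Fam53b* and the transcription factor gene *Mef2a*, at root mean square differences of 0.034, 0.055 and 0.057 log2 units over 6 libraries. Their log2 fold changes between the genotypes were 0.066, -0.0054 and 0.034. For *Rictor* the nearest were *Clstn1*, *Prkar2a*, which encodes a regulatory subunit of protein kinase A, and *Trp53bp1*, a DNA damage response gene, at 0.068, 0.074 and 0.082. These had log2 fold changes of 0.26, 0.29 and 0.24. The genes were selected from the whole table for this likeness, so it is a description only.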
